A study of Mus musculus and Rattus norvegicus with 30 samples.

Results

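Lipn and 5 related acid lipase genes were followed through dorsal root ganglia (DRG), where the cell bodies of sensory neurons lie, after nerve injury in mouse and rat. The genes were taken by symbol: Lipn, Lipa, Lipk, Lipm, Lipf and Lipo1, 6 of the 54315 features in the mouse count table and 6 of the 39281 features in the rat table. Lipn was selected for its rise after injury in both mouse strains, so its injury values in mouse are described and not tested. The other members were chosen by family and position, to compare Lipn with the gene cluster it sits in.

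The mouse libraries came from L3 and L4 DRG of single animals of the inbred strains BALB/c and B10.D2, males and females, 28 days after surgery. In spared nerve injury (SNI) one branch of the sciatic nerve, the tibial, is left intact while its companions are severed, so these ganglia hold cut and uncut neurons together. Sham animals had surgery without the nerve lesion. BALB/c gave 6 libraries after sham surgery and 4 after SNI, and B10.D2 gave 5 of each. The rat libraries came from L5 DRG of male Wistar rats, 3 animals pooled in each, 21 days after spinal nerve transection (SNT) or sham surgery, with 4 libraries per group. No group carries a transgene or a drug, and ages at surgery are not in the labels.

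Acid lipases split fatty acids from cholesteryl esters and glycerides and work best at low pH. Lipa encodes lysosomal acid lipase, made by most cells, whose loss causes a lipid storage disease. Lipf encodes gastric lipase, secreted by the stomach. Lipk, Lipm and Lipn are known from the outer, differentiating layers of the epidermis, and mutations of human LIPN cause a form of ichthyosis. The mouse Lipo genes are a further branch of the family that is little studied. In injured DRG, axotomized neurons switch on a set of genes that includes transcription factors, neuropeptides and growth proteins, while macrophages and glia also respond.

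In mouse the 6 genes lie within 752 kb of chromosome 19 (mm10, positions from GENCODE M21). Lipn (ENSMUSG00000024770) covers 34067358 to 34084918 on the plus strand. Lipk (34008290 to 34047835) ends 19.5 kb before it and Lipm (34100933 to 34122687) starts 16.0 kb after it, both on the plus strand. Lipf (33961187 to 33976810, plus strand) and Lipo1 (33775498 to 33787459, minus strand) are further upstream. Lipa (34492318 to 34527474, minus strand) is 407.4 kb downstream of Lipn. The 5 other protein-coding genes of the interval are Ankrd22, Stambpl1, Acta2, Fas and Ch25h, all between Lipm and Lipa, and no LncRNA assembled by the authors lies there.

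The promoter of Lipn, the gene whose level moved, and that of Lipa, the member with the highest level, are shown from RefSeq sequence of GRCm38.p6, from 250 bases before to 50 bases after the gene start. Both run 5′ to 3′ on the strand of the gene, Lipn at chr19:34067108-34067407 on the plus strand and Lipa at chr19:34527425-34527724 on the minus strand. Capitals mark matches to any of the 4 motifs searched on both strands.
Lipn: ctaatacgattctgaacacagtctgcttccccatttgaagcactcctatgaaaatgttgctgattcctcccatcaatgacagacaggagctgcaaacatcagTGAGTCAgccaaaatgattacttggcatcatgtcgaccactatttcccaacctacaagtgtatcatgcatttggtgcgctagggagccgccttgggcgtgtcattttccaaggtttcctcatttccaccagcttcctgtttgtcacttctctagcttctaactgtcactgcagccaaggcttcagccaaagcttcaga
Lipa: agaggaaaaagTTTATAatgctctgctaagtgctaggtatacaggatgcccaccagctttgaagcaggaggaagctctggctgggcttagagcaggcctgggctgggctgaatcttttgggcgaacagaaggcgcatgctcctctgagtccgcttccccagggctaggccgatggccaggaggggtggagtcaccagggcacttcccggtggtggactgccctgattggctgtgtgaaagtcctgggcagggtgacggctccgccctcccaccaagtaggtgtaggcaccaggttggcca
The capitals in Lipn are TGAGTCA, the reverse complement of the AP-1 motif TGACTCA, from 148 to 142 bases before the start. AP-1 is the binding motif of Jun and Fos family factors, and it was present on either strand in 5.20% of the 32851 promoters of the same length. The capitals in Lipa are TTTATA, the reverse complement of TATAAA, beginning 239 bases before the start, a motif present in 13.6% of promoters. Sequences were available for 5 of the 6 members (Lipn, Lipa, Lipm, Lipf and Lipo1), and AP-1 letters were found in the Lipn window alone among them. The CRE motif TGACGTCA (1.79% of promoters) and the E-box CACGTG, the core of the lysosomal CLEAR element (7.15%), were found in none of the 5. These matches describe letters and were not tested as binding sites.

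In uninjured mouse DRG the members covered a wide range of levels. Levels are given as CPM, counts divided by the library total in M counts after scaling by TMM, a factor that corrects for composition, and between genes as CPM per kilobase of exon. Per kilobase, Lipa was at 11.8 ± 0.577 (SD, n = 6) in BALB/c sham and 11.9 ± 0.577 (SD, n = 5) in B10.D2 sham. Lipk followed with 0.834 ± 0.156 and 1.25 ± 0.201, and Lipn with 0.0713 ± 0.0630 and 0.0523 ± 0.0165. Lipa thus stood 14.1 times above Lipk and 165 times above Lipn per kilobase in BALB/c sham, with no overlap between the libraries of neighbouring genes in this order.

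Lipm, Lipf and Lipo1 had almost no counts in mouse. Lipm had 1 count in BALB/c sham 55, 2 counts in B10.D2 sham 77 and none in the other libraries. Lipf and Lipo1 had no count in any of the 20 libraries, which allows up to 0.0716 to 0.1 CPM per library, the limits that 3 counts set at totals of 30.0 to 41.9 M counts. No order can be given among these 3. Lipm overlaps Ankrd22 by 1219 bases on the opposite strand, and the counting used strand.

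After SNI the Lipn level was higher in every injured library than in any sham library of the same strain. In BALB/c sham, Lipn had 0 counts in the lowest library, a median of 5 and 10 in the highest. In BALB/c SNI it had 97, 132, 138 and 152 counts. The mean was 3.57 ± 0.299 CPM in SNI (SD, n = 4) against 0.134 ± 0.119 CPM in sham (SD, n = 6), 26.6 times as high, and the lowest SNI library was 10.6 times the highest sham library.

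In B10.D2 sham, Lipn had 2, 3, 4, 4 and 5 counts. In B10.D2 SNI it had 24, 74, 90, 97 and 107 counts. The means were 0.0986 ± 0.0310 CPM (SD, n = 5) and 2.08 ± 0.847 CPM (SD, n = 5), a ratio of 21.1. Library 76 was the lowest of the SNI libraries at 0.613 CPM, 4.51 times the highest sham library, and the other 4 lay between 2.07 and 2.60 CPM.

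The fitted log2 fold change of Lipn was 4.78 ± 0.42 (SE) in BALB/c and 4.40 ± 0.47 (SE) in B10.D2. These values are descriptions, since the gene was selected on them. Lipn passed the filter on low counts through its injured libraries alone. All 4 BALB/c SNI libraries (3.15 to 3.81 CPM) lay above all 5 B10.D2 SNI libraries (0.613 to 2.60 CPM), while the sham libraries of the strains overlapped. The difference between the 2 fold changes was -0.38 ± 0.79 on the log2 scale.

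**Figure D1:**
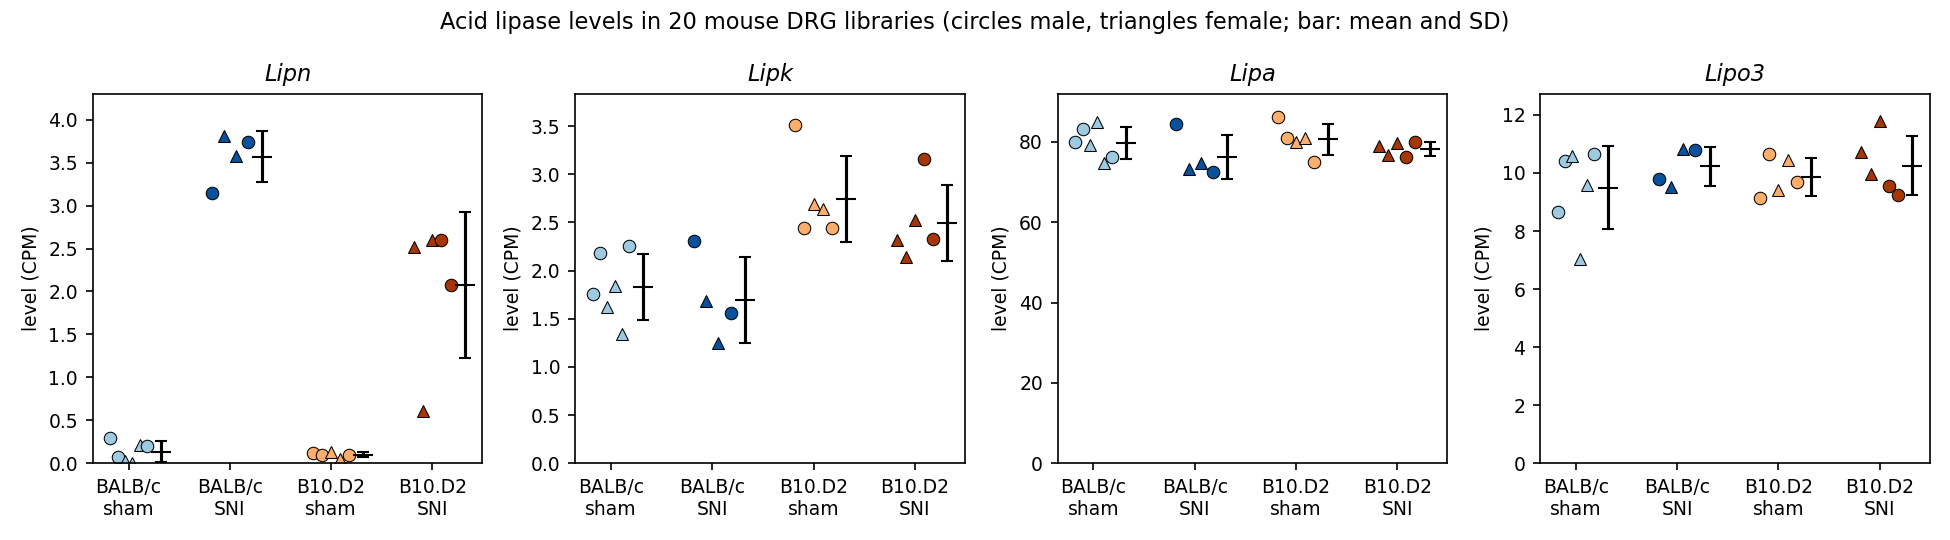
Level in CPM (y axis, from 0) of Lipn, Lipk, Lipa and Lipo3 in each of the 20 mouse libraries, by group on the x axis, with circles for males, triangles for females and a bar for the mean ± SD. Lipn stood between 3.15 and 3.81 CPM in BALB/c SNI and between 0.613 and 2.60 CPM in B10.D2 SNI against at most 0.298 CPM in sham, while the sham and SNI libraries of Lipk, Lipa and Lipo3 overlapped within each strain.

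Of the other 5 members, Lipa and Lipk had enough counts to be tested, and neither passed the test after SNI. By edgeR's quasi-likelihood test, 0 of these 2 were called (adjusted p under 0.05) in BALB/c, where 9.69% of all tested features were called, and 0 of 2 in B10.D2, where 4.58% were called. At an unadjusted p under 0.05, and with DESeq2, the number was also 0 in both strains.

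Lipa had 2501 to 3320 counts in every mouse library. Its CPM was 79.7 ± 3.91 (SD, n = 6) in BALB/c sham and 76.3 ± 5.51 (SD, n = 4) in BALB/c SNI, and 80.6 ± 3.91 and 78.3 ± 1.75 (SD, n = 5 each) in B10.D2. The log2 fold change was -0.06 ± 0.05 (SE, edgeR adjusted p = 0.471) in BALB/c, with a 95% interval of -0.17 to 0.04. In B10.D2 it was -0.04 ± 0.05 (SE, edgeR adjusted p = 0.760), with an interval of -0.14 to 0.06. These intervals concern Lipa RNA, and the amount and activity of the enzyme were not measured.

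Lipk was the nearest member to Lipn with enough counts to be tested, since Lipm, which lies nearer, had almost none. Lipk had 45 to 87 counts in BALB/c sham and 48, 55, 67 and 71 counts in BALB/c SNI. In B10.D2 it had 81, 99, 99, 101 and 120 counts in sham and 83, 83, 84, 104 and 118 counts in SNI. Sham and SNI libraries overlapped in both strains. The log2 fold change was -0.12 ± 0.16 (SE, edgeR adjusted p = 0.715, 95% interval -0.44 to 0.21) in BALB/c and -0.09 ± 0.15 (SE, edgeR adjusted p = 0.828, 95% interval -0.39 to 0.21) in B10.D2. Per kilobase, the order of Lipk and Lipn turned in BALB/c, with Lipn at 1.90 ± 0.159 and Lipk at 0.772 ± 0.202 after SNI (SD, n = 4). In B10.D2 SNI the genes did not differ beyond their spread, at 1.10 ± 0.450 and 1.13 ± 0.180 (SD, n = 5).

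Lipn made up 6.81% ± 6.20 (SD, n = 6) of the counts of the 5 members other than Lipa in BALB/c sham and 68.0% ± 7.13 (SD, n = 4) in BALB/c SNI. In B10.D2 the share was 3.47% ± 1.04 in sham and 43.4% ± 12.2 in SNI (SD, n = 5 each). Lipa still took nearly all counts of the 6 genes after injury, and Lipn 4.41% ± 0.625 in BALB/c SNI and 2.49% ± 0.999 in B10.D2 SNI.

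Of the 5 neighbours, 4 had enough counts to be tested, and 0 of 4 were called after SNI in either strain. Over all features 9.69% were called in BALB/c and 4.58% in B10.D2, so 0 of 4 lies near those shares. The smallest adjusted p was 0.0802 for Stambpl1, a deubiquitinase, in B10.D2, where the log2 fold change was -0.18 ± 0.06 (SE, edgeR). It was the 1 neighbour with an unadjusted p under 0.05, and DESeq2 called it. In BALB/c no neighbour passed either. Fas, a death receptor, was at 0.33 ± 0.19 in BALB/c and 0.27 ± 0.20 in B10.D2 (log2 fold change ± SE), and Ch25h, cholesterol 25-hydroxylase, at 0.32 ± 0.21 and 0.28 ± 0.21. Acta2, smooth muscle actin, was at 0.04 ± 0.31 and 0.49 ± 0.33.

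Ankrd22, an ankyrin repeat protein gene next to Lipm, had too few counts to test. It had 0 to 15 counts in BALB/c sham and 5 to 20 in BALB/c SNI, and 0 to 5 counts in both B10.D2 groups.

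Lipo3, the one other Lipo gene that passed the filter, had 252 to 486 counts per library. Its log2 fold change was 0.11 ± 0.10 in BALB/c and 0.05 ± 0.10 in B10.D2 (SE, edgeR adjusted p = 0.590 and 0.860). Lipo2 had 1 to 16 counts and Lipo4 0 to 2. Lipo2 and Lipo3 share a run of 142 identical bases in their promoter windows and Lipo3's annotation spans Lipo2, so reads of this pair may be split between them and their separate values are uncertain.

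**Figure D2:**
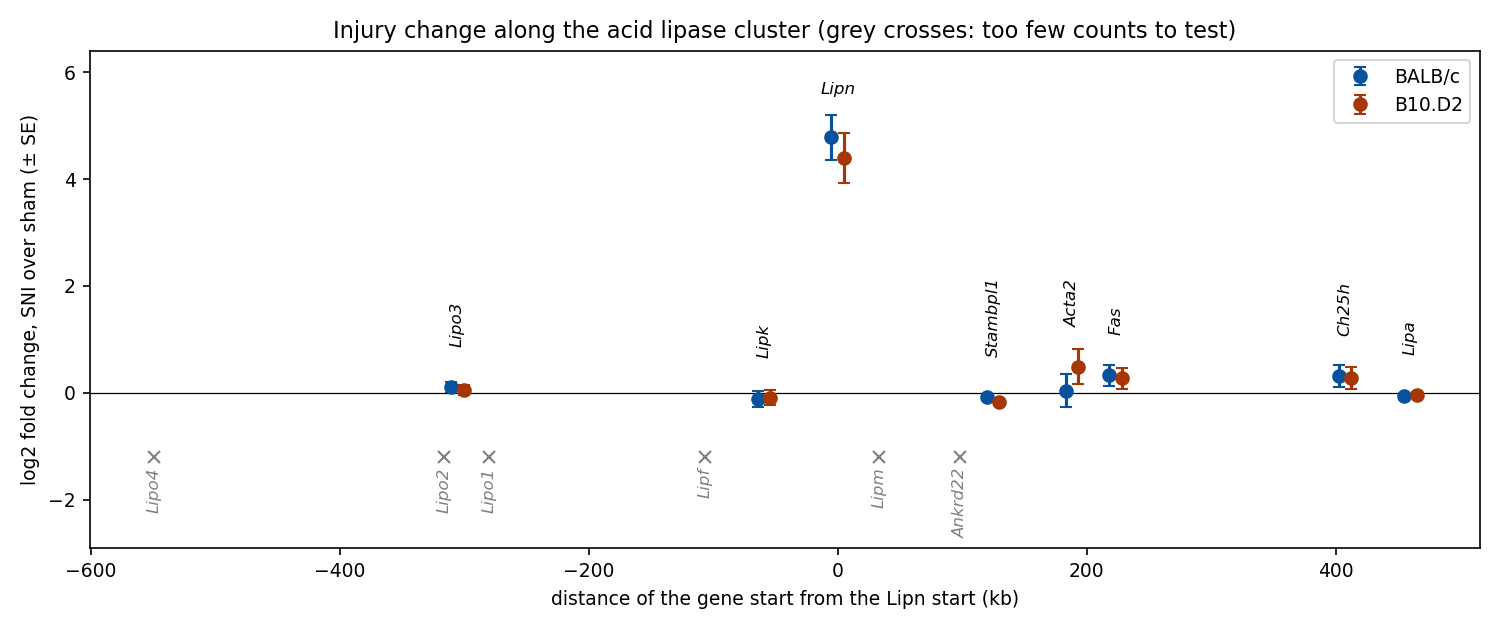
Fitted log2 fold change of SNI over sham (y axis, ± SE) for each gene of the cluster against the distance of its start from the start of Lipn in kb (x axis), in BALB/c (blue, 4 against 6 libraries) and B10.D2 (red, 5 against 5). Lipn lies at 4.78 and 4.40, every other tested gene between -0.18 and 0.49, and grey crosses, whose height has no meaning, mark genes with too few counts to test. The points of the strains are set slightly apart.

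The splice junctions deposited for mouse were compared with the annotated introns of the members. They carry no read number and no library, so they cannot be assigned to a group. For Lipn 9 of 11 annotated introns matched a junction exactly, and in the best supported transcript 8 of 9. For Lipk and Lipa all 9 introns of the best supported transcript matched. Lipm had 1 of 10, Lipf 0 of 9 and Lipo1 1 of 8.

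Between the strains without injury, Lipk was the 1 member of 3 tested that differed, where 21.6% of all features were called. B10.D2 sham libraries (2.44 to 3.51 CPM) lay above all BALB/c sham libraries (1.34 to 2.26 CPM). The log2 difference of B10.D2 over BALB/c was 0.56 ± 0.14 (SE, edgeR adjusted p = 0.00545). Lipn differed by -0.39 ± 0.67 (adjusted p = 0.746) and Lipa by 0.02 ± 0.05 (adjusted p = 0.869). The reads of both strains were aligned to the same reference genome.

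Markers of other tissue also differed between the strains in sham, where 21.6% of all features were called. Of the 6 skeletal muscle markers, 5 were lower in B10.D2, with a summed level of 8.92 to 1352 CPM in BALB/c and 8.04 to 22.8 CPM in B10.D2, and DESeq2 called 2. The highest value was that of BALB/c sham 50, and the other BALB/c sham libraries were at 8.92 to 97.9 CPM. Of 7 fat cell markers 2 were lower, with summed levels of 39.8 to 98.9 and 9.38 to 72.6 CPM. Of 13 macrophage markers 6 were higher, with summed levels of 144 to 347 and 267 to 315 CPM. Acta2, inside the lipase interval, was lower by 1.43 ± 0.31 on the log2 scale (edgeR adjusted p = 0.00151). Their part in the Lipk difference was not tested.

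The injury changes of the tested members other than Lipn were not found to differ between strains or sexes. For the strain by injury term 0 of 2 were called, where 0.0243% of all features were called, and 0 had an unadjusted p under 0.05 or a call with DESeq2. The difference between the strains' log2 fold changes was 0.03 ± 0.07 (SE) for Lipa and 0.03 ± 0.21 (SE) for Lipk, both with an edgeR adjusted p of 1.0 and with 95% intervals of -0.12 to 0.17 and -0.41 to 0.47. For the sex by injury term 0 of 2 were called by edgeR or DESeq2 and 0 had an unadjusted p under 0.05, where 0% of 25143 features were called (1353 had an unadjusted p under 0.05 and DESeq2 called 2). The log2 difference of the female over the male injury change was -0.03 ± 0.07 for Lipa and -0.08 ± 0.22 for Lipk (SE), and 0.71 ± 0.75 for Lipn, which was not tested.

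Between females and males 0 of 3 members were called by edgeR or DESeq2, where 0.243% of all features were called. Lipk had an unadjusted p of 0.0228, with a log2 difference of -0.26 ± 0.11 for female over male (SE, edgeR adjusted p = 0.326). Lipn was at 3.58 and 3.81 CPM in the 2 female and 3.15 and 3.74 CPM in the 2 male BALB/c SNI libraries. In B10.D2 SNI it was at 0.613, 2.51 and 2.59 CPM in females and 2.07 and 2.60 CPM in males. The low B10.D2 SNI library 76 was a female.

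In rat, whose values did not enter the choice of Lipn, the Lipn level was higher in all SNT than in all sham libraries, and Lipa fell. Of the 5 members other than Lipn, 1 had enough counts to be tested, Lipa, and it was called, where 27.4% of all features were called. The limits that 3 counts set were 0.168 to 0.251 CPM. Sham library 4 stood apart from the other sham libraries, with summed injury markers of 1040 CPM against 390.0 to 431 CPM in them and 1372 to 1997 CPM in SNT, so results are also given without it. Without it 4873 of all features were called, against 3753 with it (27.4% of 13690 tested), so calls rose over all features and not in single lists alone. The features that pass the filter differ without sham 4, and no share is given for that fit.

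Lipn had 0, 1, 0 and 9 counts in sham libraries 1 to 4 and 16, 20, 21 and 31 counts in SNT libraries 1 to 4. All SNT libraries (1.01 to 2.03 CPM) lay above all sham libraries, the highest of which, sham 4, was at 0.586 CPM. The means were 0.162 ± 0.284 and 1.33 ± 0.476 CPM (SD, n = 4 each), a ratio of 8.19. As in mouse, Lipn passed the filter on low counts through its injured libraries alone, so its call there is no support for a rise. With no filter on low counts, the log2 fold change was 2.92 ± 0.69 (SE, edgeR adjusted p = 0.0143), and with the filter it was 2.89 ± 0.73 (adjusted p = 0.0198). Its share of the counts of the members other than Lipa was 18.2% ± 25.0 in sham and 69.2% ± 8.88 in SNT (SD, n = 4 each).

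These Lipn values rested on few counts. With the filter, and without sham 2, sham 3 or SNT 4 the adjusted p was 0.0566, 0.0548 and 0.0523 (edgeR), with log2 fold changes of 2.61, 2.50 and 2.64. Without sham 4 it was 0.00164 and the fitted log2 fold change 5.41, a value that depends on the fit because the other 3 sham libraries hold 1 count together.

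Lipa had 2315, 3472, 2282 and 2889 counts in rat sham and 2309, 1941, 2492 and 1613 counts in rat SNT. On the CPM scale the groups did not overlap, with 163 to 212 in sham and 106 to 146 in SNT. Lipa fell by 0.61 ± 0.14 on the log2 scale (SE, edgeR adjusted p = 0.0150, 95% interval -0.92 to -0.30). Without sham 4 the value was -0.60 ± 0.15 (adjusted p = 0.0156).

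Lipk did not pass the filter in rat with all 8 libraries. It had 6, 4, 4 and 8 counts in sham and 10, 5, 11 and 12 in SNT, and the groups overlapped at 0.244 to 0.521 and 0.272 to 0.787 CPM. Without sham 4 it passed and was at 0.77 ± 0.48 (log2 ± SE, edgeR adjusted p = 0.235). Lipf had 3 counts over the 8 libraries, and Lipm and Lipo1 are listed at 0 in all. Of the 11 sensory neuron markers, 5 with a row, among them Tubb3 and Rbfox3, were also listed at 0 in all 8 libraries, so a 0 here does not show that a gene was not transcribed.

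**Figure D3:**
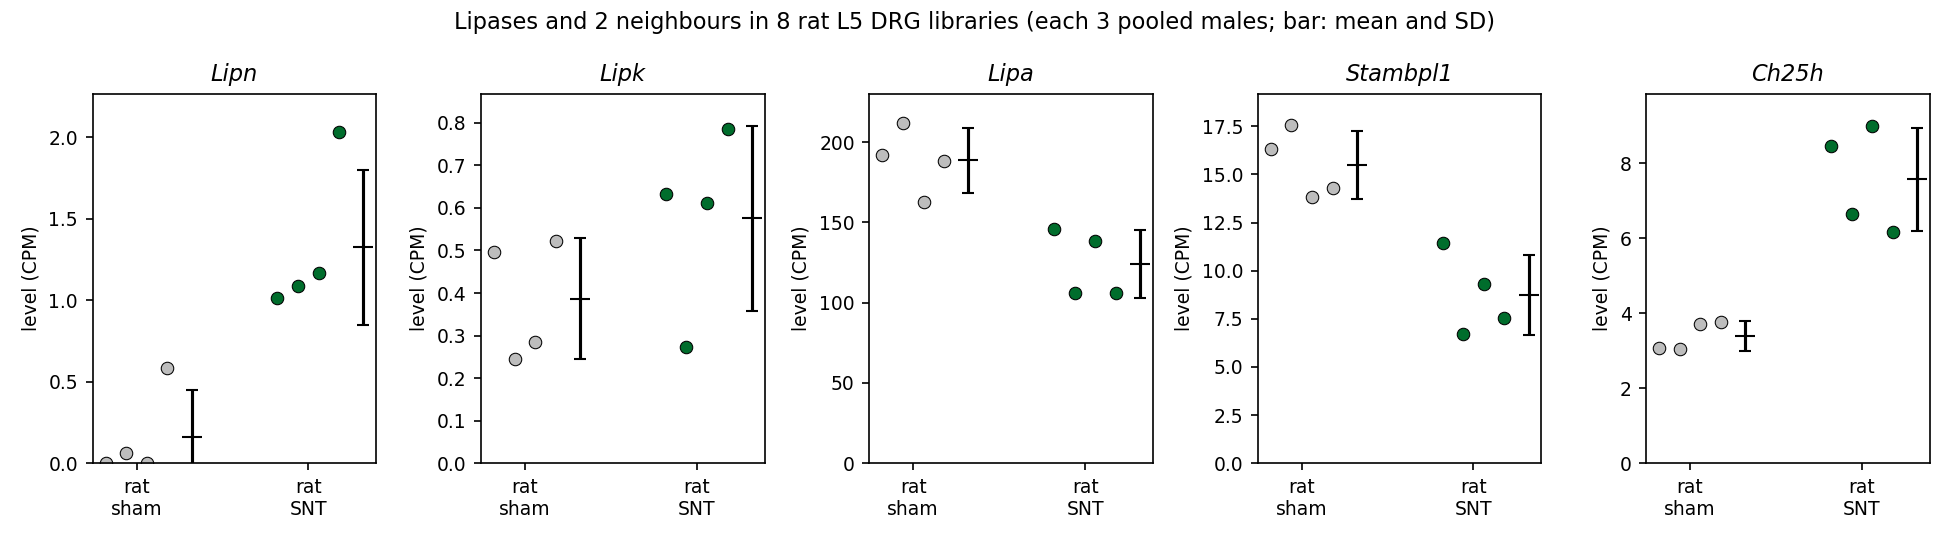
Level in CPM (y axis, from 0) of Lipn, Lipk, Lipa and the neighbours Stambpl1 and Ch25h in the 4 sham and 4 SNT rat libraries, each a pool of 3 males, with a bar for the mean ± SD (cut at 0 for Lipn in sham). Lipn and Ch25h were higher in all SNT than in all sham libraries and Lipa and Stambpl1 lower, while Lipk overlapped.

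Among the neighbours by mouse position, 4 of 5 were tested in rat. Of these 1 rose and 1 fell, where 27.4% of all features were called. Ch25h, which makes 25-hydroxycholesterol, had 37, 50, 52 and 58 counts in sham and 134, 122, 162 and 94 in SNT. It rose by 1.15 ± 0.19 on the log2 scale (SE, edgeR adjusted p = 0.0106). Stambpl1 fell by 0.83 ± 0.18 on the log2 scale (SE, edgeR adjusted p = 0.0143). Fas was at -0.41 ± 0.15 (adjusted p = 0.0710) and Acta2 at -0.10 ± 0.34 (adjusted p = 0.842). Without sham 4 the values were 1.22 ± 0.21 for Ch25h, -0.85 ± 0.20 for Stambpl1, -0.46 ± 0.16 for Fas and 0.35 ± 0.24 for Acta2 (log2 ± SE, edgeR adjusted p = 0.00381, 0.0105, 0.0563 and 0.286). Acta2, not called in either fit, thus changed sign. The rat and mouse experiments differ in lesion, ganglion, time and RNA selection as well as in species.

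Cell markers were also read in rat, where 27.4% of all features were called. Of the 6 sensory neuron markers tested, 3 fell and 0 rose, with summed levels of 6232 to 9182 CPM in sham and 3848 to 7652 CPM in SNT. Of the 9 macrophage markers tested 1 rose, a share below that over all features, with summed levels of 468 to 2010 and 1736 to 2538 CPM. The macrophage sum was 2010 CPM in sham 4 and 468 to 846 CPM in the other sham libraries. Without sham 4 the number of macrophage markers that rose was 8 of 9, where 4873 of all features were called against 3753 with it. Of the 3 fat cell markers tested 1 rose, Cidec, a lipid droplet protein (1.74 ± 0.34 log2, edgeR adjusted p = 0.0117), with summed levels of 7.93 to 36.6 CPM in sham and 22.7 to 66.8 CPM in SNT, and without sham 4 the number was 2 of 3. Of the 3 satellite glia and Schwann cell markers tested 2 rose, and the list summed to 8884 to 12990 CPM in sham and 7686 to 9795 CPM in SNT. With sham 4 kept, the summed ranges of sham and SNT overlapped in each of these lists. The part of these marker differences in the Lipn, Lipa and Ch25h values was not tested. In whole ganglia fewer cells of a type and less RNA per cell cannot be told apart.

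Of the 10 genes whose level across the 20 mouse libraries was most like that of Lipn, 6 were in the list of injury markers (Nts, Npy, Atf3, Flrt3, Sprr1a and Ecel1). By Pearson's r of log2(CPM + 0.1) among 14412 annotated genes of at least 1 CPM, they were Nts (0.983), Mmp16 (0.982), Gpr151 (0.981), Npy (0.978), Atf3 (0.977), Flrt3 (0.977), Chl1 (0.976), Tnik (0.975), Sprr1a (0.973) and Ecel1 (0.972). Nts and Npy encode neuropeptides, Atf3 a transcription factor of injured neurons, Gpr151 an orphan receptor of sensory neurons, and Chl1 and Flrt3 adhesion proteins. The libraries form a sham and an SNI cluster, and these values mainly describe that split.

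After subtraction of the group means, 6 of these 10 remained among the 10 most like Lipn, led by Ecel1 (r = 0.838), Mmp16 (0.836) and Nts (0.835). Library 76 was the lowest of the B10.D2 SNI libraries in Lipn (0.613 CPM), in Nts (29.4 CPM against 67.8 to 110 in the other 4) and in Ecel1 (3.78 CPM against 13.7 to 17.3). Among the relatives of Lipn, the same measure gave r = 0.121 with Lipk, -0.24 with Lipa and 0.203 with Lipo3. Among the neighbours it gave 0.581 with Ch25h, 0.235 with Ankrd22, 0.023 with Acta2, -0.072 with Fas and -0.32 with Stambpl1. Relatives and neighbours were set beforehand, while the genes named first are the highest of 14412. These r rest in part on sham libraries with at most 10 Lipn counts and on library 76, which lay apart in its group.

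**Figure D4:**
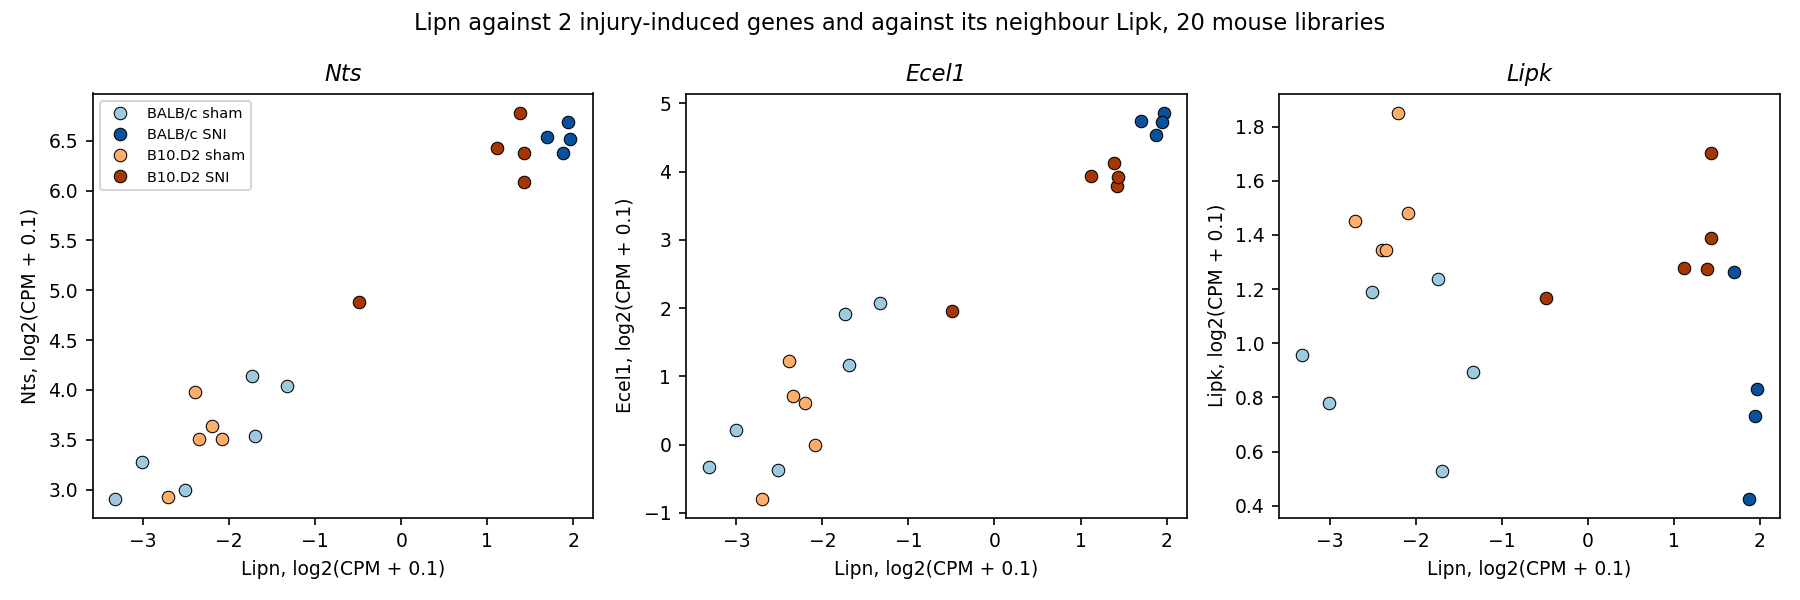
Lipn level (x axis) against the levels of Nts, Ecel1 and Lipk (y axes), all as log2(CPM + 0.1), with 1 point per mouse library coloured by group. The B10.D2 SNI library 76 lies between the sham and SNI libraries in Lipn and Nts and within the sham range in Ecel1 (3.78 CPM, where sham reached 4.11 CPM), and Lipk shows no matching split between sham and SNI.

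The genes most like Lipa reached lower values, led by D7Ertd443e (r = 0.838), Got1 (0.786), Nop10 (0.782), Fam107a (0.775) and Flt3 (0.749), followed by Eral1, Cdh7, 4930502E18Rik, Sfmbt2 and Slco6c1 (0.722 to 0.747). No gene of the lysosomal list was among the 10. That list holds 24 genes and 14412 were compared, so few or none would be found among any 10. After subtraction of the group means 2 of the 10 remained, D7Ertd443e and Got1, behind Lcp1 (0.902), Gpat3 (0.895) and Car2 (0.881).

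Lipa works beside other lysosomal lipid breakdown genes. Of the 24 tested, 1 rose and 1 fell in each strain, the same pair. Over all features 9.69% were called in BALB/c and 4.58% in B10.D2. Scarb2, a lysosomal membrane protein, rose by 0.21 ± 0.04 in BALB/c and 0.14 ± 0.04 in B10.D2 (log2 ± SE, edgeR adjusted p = 0.000502 and 0.0203). Gla, alpha-galactosidase A, fell by 0.18 ± 0.06 and by 0.21 ± 0.05 (adjusted p = 0.0398 and 0.0247). The median over the list was 0.02 and 0.04 against 0.0033 and 0.0076 over all features.

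In rat, 14 lysosomal genes were tested, and 2 rose and 2 fell, a share similar to the 27.4% called over all features. The list median was 0.26 against 0.0027. Gla fell by 0.80 ± 0.18 and Lamp2, a lysosomal membrane protein, by 0.43 ± 0.13, and Tfeb, the transcription factor of lysosomal genes, rose by 0.74 ± 0.17 (log2 ± SE, edgeR adjusted p = 0.0148, 0.0343 and 0.0142). Without sham 4 these counts were 8 and 3 of 14, where 4873 of all features were called against 3753 with it.

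The epidermal differentiation genes, with which Lipk, Lipm and Lipn are usually grouped, were listed with 30 members. Of the 15 tested, Sprr1a and Tgm1 rose and 0 fell in each mouse strain, where 9.69% and 4.58% of all features were called. DESeq2 called 2 in each. Sprr1a, a cornified envelope protein that is also switched on in injured neurons, rose by 4.92 ± 0.39 in BALB/c and 5.05 ± 0.45 in B10.D2 (log2 ± SE, edgeR adjusted p = 8.5e-08 and 2.79e-06). Sprr1b, 1 of the 15, was also called by edgeR in both strains. It passed the filter through SNI libraries alone, so its call is no support for a rise and is not counted. It had no count in any sham library and 56 and 19 counts summed over the SNI libraries of BALB/c and B10.D2. Tgm1, transglutaminase 1, rose by 2.48 ± 0.35 and 2.34 ± 0.35 (adjusted p = 7.41e-05 and 0.000269).

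The levels of the list differed widely between genes. Ivl and Casp14 had no count in any mouse library. Krt5 and Krt14, keratins of the basal layer, were at 0.0287 and 0.0938 CPM in BALB/c sham, and at 0.00709 and 0.160 CPM in BALB/c SNI. In B10.D2 they were at 0.140 and 0.160 CPM in sham and 0.0204 and 0.222 CPM in SNI. Krt10, a keratin of the upper layers, was at 0.991 to 1.09 CPM in the means of the 4 groups, Cyp4f39 at 7.89 to 10.8 CPM and Grhl3, a transcription factor of epidermal differentiation, at 6.89 to 20.98 CPM. The list medians were 0.08 and 0.01 in BALB/c and B10.D2 against 0.0033 and 0.0076 over all features. The summed level was 22.7 to 30.1 CPM in BALB/c sham and 41.8 to 55.1 CPM in BALB/c SNI, of which Sprr1a made up 0.822 and 24.5 CPM on average.

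In rat 3 of 8 epidermal genes tested rose, Lce1f, Sprr1a and Abca12, and 1, Cyp4f39, fell. Among all features 27.4% were called. The log2 fold changes of the 3 were 4.71 ± 0.55, 1.92 ± 0.46 and 1.68 ± 0.34 (SE, edgeR adjusted p = 0.00835, 0.0171 and 0.0125). Whether Lce1f passed the filter on low counts through its SNT libraries alone was not examined. If it did, its call is no support for a rise. Lce1f and Sprr1a encode cornified envelope proteins and Abca12 a lipid transporter of keratinocytes. Tgm1, Krt10 and Krt14 are listed at 0 in all rat libraries.

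Among other lipases and lipid droplet genes, 5 of 23 tested rose and 2 fell in BALB/c, and 3 rose and 1 fell in B10.D2. The shares called over all features were 9.69% and 4.58%. The called gene of largest change in both strains was Liph, a phospholipase that makes lysophosphatidic acid, which rose by 1.79 ± 0.28 and by 1.44 ± 0.29 (log2 ± SE, edgeR adjusted p = 0.000235 and 0.00485). Plin2, a lipid droplet coat protein, rose by 0.75 ± 0.07 and 0.52 ± 0.07, and Abca1, a cholesterol exporter, by 0.74 ± 0.08 and 0.64 ± 0.08 (adjusted p = 2.31e-07 and 6.08e-05 for Plin2, 1.41e-06 and 2.96e-05 for Abca1). The list medians were 0.05 and 0.06.

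In rat 3 of 13 of these genes rose and 2 fell, where 27.4% of all features were called. The 3 of largest change were Ch25h, given above, Pnlip, pancreatic lipase, which fell by 1.26 ± 0.28, and Abhd12, a lysophosphatidylserine lipase, which fell by 0.74 ± 0.16 (log2 ± SE, edgeR adjusted p = 0.0145 and 0.0131). Without sham 4, 6 rose and 3 fell, where 4873 of all features were called against 3753 with it.

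Markers of injury and of cell types gave the setting of these values in mouse. All 13 injury markers tested rose in BALB/c and 12 of 13 in B10.D2, and 8 of 9 rose in rat. The shares called over all features were 9.69%, 4.58% and 27.4%. The 11 sensory neuron markers summed to 11950 to 13470 CPM in BALB/c sham and 10190 to 11910 CPM in BALB/c SNI, and to 11910 to 14520 and 9998 to 12400 CPM in B10.D2. In each strain 3 of the 11 fell and 0 rose, among them the neurofilament genes Nefh and Nefl. Of 13 macrophage markers 5 rose in BALB/c, led by Cx3cr1 (0.97 ± 0.20 log2, edgeR adjusted p = 0.00308), with summed levels of 144 to 347 CPM in sham and 287 to 423 CPM in SNI. In B10.D2 0 of 13 were called by edgeR, although 10 had an unadjusted p under 0.05 and DESeq2 called 2, with summed levels of 267 to 315 and 282 to 484 CPM.

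Of the 10 satellite glia and Schwann cell markers, 1 rose and 1 fell in BALB/c and 1 fell in B10.D2. The fall was that of S100b in both, where 9.69% and 4.58% of all features were called. Of the fat cell (7) and muscle (6) markers 0 were called after SNI in either strain by edgeR or DESeq2, and 0 had an unadjusted p under 0.05. The part of the macrophage and neuron shifts in the Lipn rise was not tested.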

How the data were processed

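RNA sequencing counts of 20 mouse and 8 rat DRG libraries were analysed. The mouse samples labelled 59 and 66 were not analysed here. Mouse RNA was depleted of ribosomal RNA and rat RNA was selected by poly-A. Per the study's methods the authors sequenced both ends of strand-specific libraries, used STAR for alignment to mm10 (mouse) or rn6 (rat) and counted read pairs per gene with HTSeq. The deposited count tables hold raw counts. The deposited result tables hold the authors' own comparisons (mean, log2 fold change, p-values), of which the symbols alone were used. Deposited splice junction and LncRNA positions were compared with GENCODE M21, to which 49326 of 49585 Ensembl identifiers matched.

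Tests used edgeR 4.0.16 (quasi-likelihood, R 4.3.3, TMM, filterByExpr), with sex and strain by surgery as terms in mouse and surgery alone in rat, two-sided, with Benjamini-Hochberg adjustment over all features tested. SEs are the absolute log2 fold change over the square root of F. The scripts were tested on simulated data. Alternatives were DESeq2 1.42.0 and its size factors, other filters, no sex term, each strain or sex alone, each library left out, and the rat run number as a block. Libraries of a mouse group were separate animals, and by the number of rats in the study's methods the rat pools were too. Mouse libraries totalled 30.0 to 41.9 M counts and rat libraries 11.95 to 17.89 M. Floors of 3 counts cover counting error only. Promoters are RefSeq's, on GRCm38.p6.

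The members and gene lists were chosen with earlier results of these data known. Named were all members, the Lipo genes, the genes between the outermost members, up to 3 called genes of largest change per list and comparison, and the 10 genes most like Lipn and Lipa; single library values of markers were chosen after their values were seen. Some marker genes are not reported here.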

Additional observations from a re-analysis of the deposited data

Results flagged for a closer look

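Of 18 groups of 4 to 6 libraries with counts of a member, 4 held a library far from the others. Chance gives about 1 in 20 if values are normally distributed and groups independent. These groups share libraries and some hold few counts, so that rate is a rough guide. In B10.D2 SNI, library 76 had the lowest Lipn level, 0.613 CPM (24 counts), and the gap to the next library was 0.736 of the group's range. In the same library Nts and Ecel1 were also the lowest of the group. In B10.D2 sham, library 58 had the highest Lipk level, 3.51 CPM (120 counts), with a gap of 0.765 of the range, and the Lipk difference between the strains was also called without it. In rat sham, library 4 had the highest Lipn level, 0.586 CPM (9 counts), with a gap of 0.896 of the range. Its summed injury markers were at 1040 CPM against 390 to 431 CPM in the other sham libraries. In rat SNT, library 4 had the highest Lipn level, 2.03 CPM (31 counts), with a gap of 0.848 of the range.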

How the results depend on the processing

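Under all alternatives run, the number of members called stayed at 0 in BALB/c and B10.D2 after SNI (without Lipn), at 0 for sex and for both interaction terms, and at 1, Lipk, between the strains. In rat, leaving Lipn out as in mouse, Lipa was called under all of them. The Lipn call with the filter, which is no support for a rise, was lost without sham 2, sham 3 or SNT 4. The rat Lipn log2 fold change was 2.50 to 5.41 with 1 library left out and 2.89 to 3.19 under the other alternatives, and that of Lipa -0.69 to -0.51 and -0.61 to -0.58. Same-numbered rat libraries did not deviate together (correlations of 0.0529, -0.238, -0.0851 and -0.0703), which does not show that a shared run is no batch. What the number marks is not stated. With the replicate block Lipa was at -0.61 (edgeR adjusted p = 0.0448) and stayed called, with 2558 of all features called against 3753. Lipn, which entered that fit through the same filter, was at 3.19 (edgeR adjusted p = 0.0326). The Lipn log2 fold change in BALB/c was 4.18 in males alone and 5.60 in females alone, where sham counts were 0, 1 and 7; all other alternatives gave 4.53 to 5.14 in BALB/c and 4.26 to 4.60 in B10.D2. The Lipa strain difference, not called under any alternative, changed sign in 3 fits with 1 library left out, from -0.0073 to 0.042. Library total alone or DESeq2 size factors moved no mean level of Lipn, Lipa or Lipk by more than 1 SD. With a pseudocount of 1, 6 of the 10 genes most like Lipn and 10 of the 10 most like Lipa were kept; after subtraction of the group means 6 and 2 were. Counts over all features varied more: in rat 3753, and 1483 (without sham 3) to 5041 (without SNT 1) with 1 library left out; in BALB/c 2392 and in B10.D2 1130, against 902 and 187 in females and 415 and 95 in males alone; and for sex 60 against 246 with DESeq2. At this depth Lipm, Lipf and Lipo1 could not be compared between groups.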
